A study of Mus musculus with 14 samples.

Results

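The genes described here encode 10 factors of the bone marrow niche: the secreted or shed signals Cxcl12, Kitl, Angpt1, Il7 and Csf1, the surface proteins Vcam1 and Jag1, the leptin receptor Lepr, and the transcription factors Foxc1 and Ebf3. They were matched by gene name among the 55335 genes of the count table, and all 10 were found and passed the filter on low counts that left 21509 genes for testing. Counts came from 14 RNA-seq libraries of mouse bone marrow cells, sorted for the tdTomato reporter and for the lack of CD45 and other blood lineage markers. Every sample title begins with the letters EC. All mice carried Cdh5 Cre, which is driven by the promoter of an endothelial cadherin, and a Rosa26 TdTomato reporter that Cre switches on. The 4 groups were untreated mice (n = 4), mice given 500 cGy of total body irradiation from a caesium source (TBI, n = 5), mice given 20 µCi of non-targeted IgG radioimmunotherapy (IgG RIT, n = 3) and mice given 20 µCi of CD45-targeted radioimmunotherapy (CD45 RIT, n = 2). Radioimmunotherapy delivers a radionuclide on an antibody, and CD45 is a surface protein of white blood cells and their precursors. Marrow was harvested 8 days after treatment. The labels do not give the animals' age, the radionuclide, or whether each library came from 1 mouse, so the p-values measure the spread between libraries, which may be partly technical.

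Blood stem cells live beside sinusoids among stromal cells that are rich in CXCL12, called CXCL12-abundant reticular (CAR) cells, most of which also carry the leptin receptor. These cells hold stem cells in place through CXCL12 and its receptor CXCR4, feed them with stem cell factor (the product of Kitl, read by KIT), and make IL-7 for B cell precursors and CSF1 for macrophages. FOXC1 and EBF3 are transcription factors known to keep CAR cells in their state. Endothelial cells of the marrow make some of the same factors at lower levels, among them CXCL12, stem cell factor, VCAM1 and JAG1.

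The sequences just upstream of the start sites are shown for 4 of the genes as examples. These are the most abundant signal (Cxcl12), the stem cell growth factor (Kitl) and the pair of transcription factors. They are the 250 bases before the RefSeq start (GRCm38.p6), written 5′ to 3′ on the gene's own strand, with the GC box (GGGCGG or its complement CCGCCC) and the TATA box (TATAAA) in capitals. The windows lie at chr6:117168285-117168534 (plus strand) for Cxcl12, chr10:100015571-100015820 (plus strand) for Kitl, chr13:31806396-31806645 (plus strand) for Foxc1 and chr7:137314446-137314695 (minus strand) for Ebf3.
Cxcl12: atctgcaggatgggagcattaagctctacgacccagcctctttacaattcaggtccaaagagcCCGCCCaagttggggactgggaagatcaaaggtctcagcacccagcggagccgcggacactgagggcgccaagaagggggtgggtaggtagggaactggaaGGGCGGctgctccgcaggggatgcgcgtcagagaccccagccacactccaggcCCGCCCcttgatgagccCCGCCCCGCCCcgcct
Kitl: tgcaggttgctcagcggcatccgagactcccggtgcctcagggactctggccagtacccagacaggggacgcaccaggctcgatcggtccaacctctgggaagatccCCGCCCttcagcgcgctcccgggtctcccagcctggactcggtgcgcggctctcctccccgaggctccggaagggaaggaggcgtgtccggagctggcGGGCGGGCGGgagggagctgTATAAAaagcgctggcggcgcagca
Foxc1: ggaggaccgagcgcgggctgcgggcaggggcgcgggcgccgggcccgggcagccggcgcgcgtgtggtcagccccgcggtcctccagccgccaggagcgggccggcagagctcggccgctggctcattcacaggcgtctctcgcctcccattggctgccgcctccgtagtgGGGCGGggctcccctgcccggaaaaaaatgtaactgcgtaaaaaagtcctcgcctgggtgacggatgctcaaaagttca
Ebf3: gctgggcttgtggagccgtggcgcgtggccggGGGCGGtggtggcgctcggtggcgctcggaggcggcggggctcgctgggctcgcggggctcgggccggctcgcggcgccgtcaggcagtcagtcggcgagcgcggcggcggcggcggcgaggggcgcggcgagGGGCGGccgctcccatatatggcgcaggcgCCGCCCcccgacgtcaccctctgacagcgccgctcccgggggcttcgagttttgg

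RefSeq windows of 300 bases, running from 250 before to 50 after the start, were matched by symbol for 7 of the 10 genes, in 8 windows because Lepr has 2 starts. Angpt1, Il7 and Vcam1 had no entry in the table. A GC box on either strand was found in 6 of the 8 windows, against 35.7% of the 32851 windows of all genes. The Cxcl12 window held 5 of them upstream of the start, Kitl and Ebf3 held 3 each, and Foxc1 held 1. A TATA box, searched on both strands, was found in 1 of the 8 windows (Kitl, at position -25 from the start) and in 13.6% of all windows. The letters GTAAACA on either strand, a consensus of forkhead factors, were in 0 of the 8 windows and in 3.65% of all. The upstream bases of Ebf3 were 80.0% G or C, those of Foxc1 70.8%, of Kitl 69.2% and of Cxcl12 64.4%. For Jag1 they were 57.2%, for Csf1 56.4% and for the 2 Lepr starts 58.4% and 54.8%. The median over the windows of all genes, which also hold the 50 bases after the start, was 52.67%. These matches describe the letters only.

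The libraries held between 16412779 and 31077588 counts, so that 3 counts, taken as the smallest signal, equalled 0.0785 to 0.215 CPM (the count scaled to a library of standard size, here with TMM factors). Cdh5, whose promoter drives the Cre that switches on the reporter, was near 0 in every group. Untreated libraries had 0 to 6 counts, those of TBI mice 0 to 5, and no RIT library had any. Pecam1, another endothelial gene, averaged 44.3 CPM in untreated, 17.9 in TBI, 6.10 in IgG RIT and 0.279 in CD45 RIT libraries. The list of 22 endothelial markers as a whole summed to 154 to 187 CPM in untreated, 64.7 to 140 in TBI and 48.5 to 66.5 in IgG RIT libraries, and to 109 and 517 in the CD45 RIT pair, where 5 of its 17 tested genes were called higher, 4 lower, and 12 and 7 of the 22 were at 0. A list of 22 CAR-cell marker genes, holding none of the 10 niche factors, summed to 1465 to 3403 CPM in untreated, 224 to 756 in TBI, 554 to 1020.4 in IgG RIT and 46785 to 52337 in CD45 RIT libraries. The CD45 RIT pair stood apart: across genes they correlated at 0.673, against 0.906 to 0.979 within the other groups, and replicate 2 had counts for 17700 genes against 20994 in replicate 1 and at least 21660 in the other 12. TBI replicate 6 also stood apart, with erythroid marker genes summing to 230989 CPM, where the other TBI libraries had 33155 to 48666. The same sum was 12163 to 17473 CPM in untreated libraries, 175251 to 200454 in IgG RIT libraries, and 284599 (replicate 1, the highest of the 14 libraries) and 62175 (replicate 2) in the CD45 RIT pair; its part in the niche factor values was not tested. In bulk libraries of sorted cells, fewer cells of a type and less RNA per cell cannot be told apart.

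All 10 niche factor genes were higher after CD45 RIT than in every other library, and 8 of the 10 were lower after TBI than in untreated mice. After IgG RIT, 2 of the 10 were lower. The genes rose between 5.17-fold (Angpt1) and 40.5-fold (Vcam1) after CD45 RIT, and the called falls after TBI were between 4.77-fold (Lepr) and 13.0-fold (Angpt1). Calls are those of edgeR's quasi-likelihood test at a Benjamini-Hochberg adjusted p under 0.05 over all 21509 genes. The background for these counts was 14.5% of all tested genes called higher after CD45 RIT, 3.38% called lower after TBI and 10.7% called lower after IgG RIT. Counted by libraries that do not overlap with the untreated ones, 10 of the 10 lay higher after CD45 RIT (background 17.5%), 9 of the 10 lower after TBI (background 12.8%) and 4 of the 10 lower after IgG RIT (background 27.4%). The median log2 fold change of the 10 genes was 4.34 after CD45 RIT, -2.88 after TBI and -1.20 after IgG RIT, where the medians of all tested genes were -0.37, -0.16 and -0.42. All 3 comparisons share the same untreated libraries. With no scaling factors the median of all genes after CD45 RIT moved to -1.08, and that of the niche factors to 3.64.

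**Figure D1:**
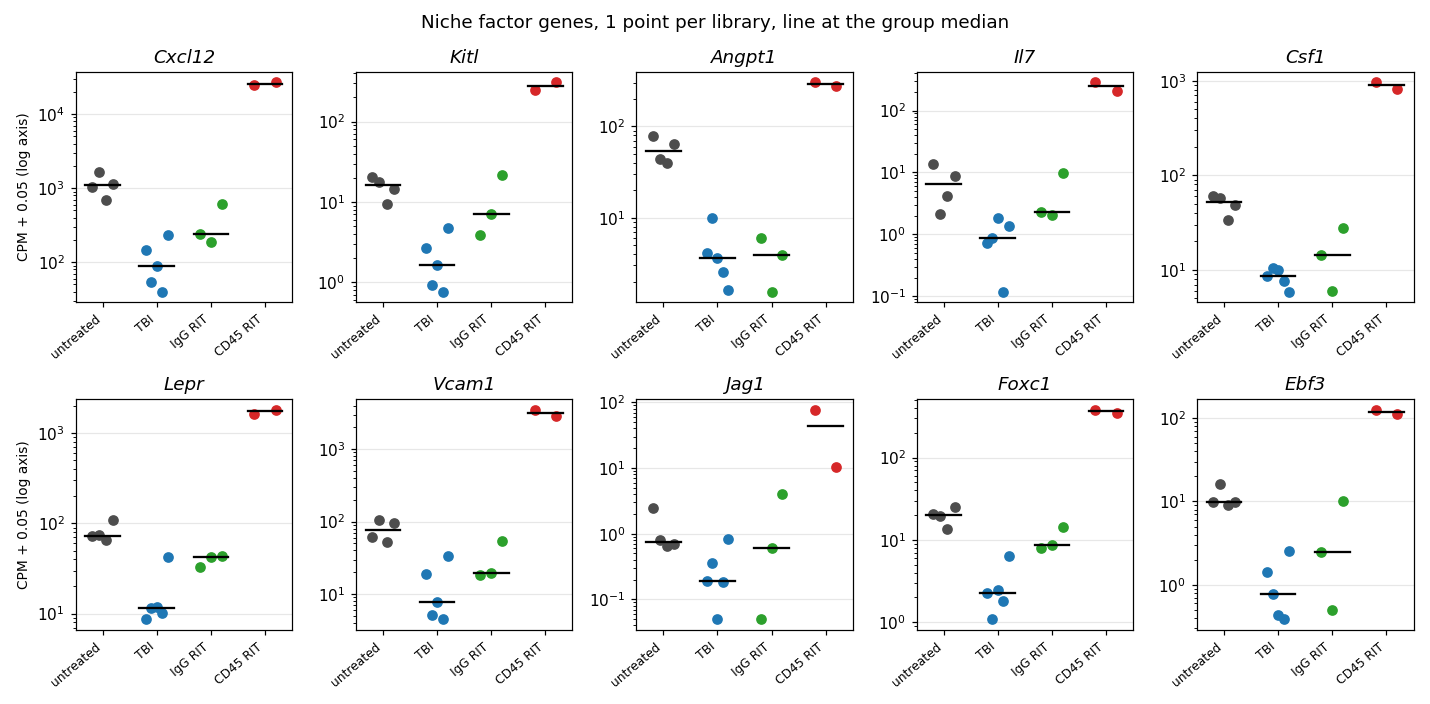
CPM of each of the 10 genes in every library (1 point per library, log axis, 0.05 added to every value so that 0 can be drawn), by treatment group, with a line at the group median. In every panel both CD45 RIT points lie above all 12 others. The TBI points lie below all untreated points in 9 of the 10 panels, all but Jag1.

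**Figure D2:**
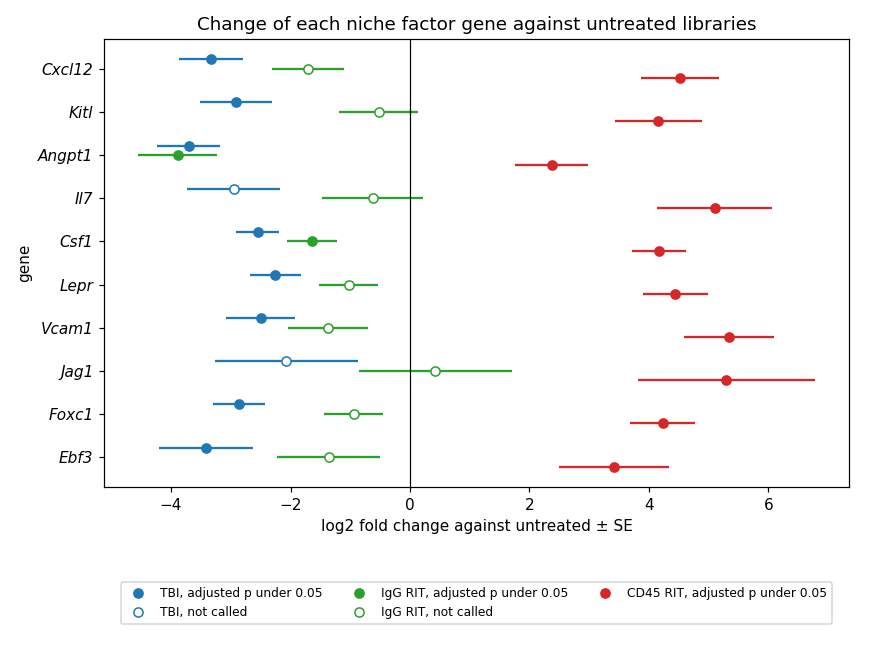
Log2 fold change against untreated libraries (x axis, point ± SE) for each gene (y axis) after TBI, IgG RIT and CD45 RIT, with filled points for calls at an adjusted p under 0.05. Every CD45 RIT point is filled and right of 0, 8 of the 10 TBI points are filled and left of 0, and 2 IgG RIT points (Angpt1 and Csf1) are filled.

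Cxcl12 (ENSMUSG00000061353.11, GRCm38 chromosome 6, 117168535 to 117181367) encodes the chemokine that anchors stem cells in the marrow. It had 1031, 1638, 693 and 1153 CPM in untreated replicates 1 to 4, and 145, 53.9, 89.4, 39.7 and 233 CPM in TBI replicates 1, 3, 4, 5 and 6. It had 240.1, 188 and 606 CPM in IgG RIT replicates 1 to 3, and 24845 and 26836 CPM in CD45 RIT replicates 1 and 2. No TBI or IgG RIT library reached the lowest untreated library, and the lower CD45 RIT library was 15.2 times the highest of the other 12. The log2 fold change against untreated was -3.33 after TBI (SE 0.53, edgeR adjusted p 0.00493) and 4.52 after CD45 RIT (SE 0.65, edgeR adjusted p 3.44e-04). After IgG RIT it was -1.71 (SE 0.60, edgeR adjusted p 0.0705), which did not pass; it was called without IgG RIT replicate 3 (-2.40, edgeR adjusted p 0.0414), with no scaling factors (-2.24, edgeR adjusted p 0.0146) and in a fit of the 2 groups alone (-1.42, edgeR adjusted p 0.0395).

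Kitl (ENSMUSG00000019966.18, chromosome 10, 100015630 to 100100416) encodes stem cell factor, the ligand of KIT that stem cells need to persist. Untreated replicates 1 to 4 had 20.6, 17.5, 9.41 and 14.5 CPM, and TBI replicates 1, 3, 4, 5 and 6 had 2.65, 0.864, 1.57, 0.711 and 4.66 CPM. The IgG RIT libraries had 3.82, 7.12 and 21.4 CPM, which spanned the untreated range and beyond, and the CD45 RIT libraries had 247 and 308 CPM. The TBI libraries lay below all untreated ones, and IgG RIT replicate 3 was the highest of the 12 libraries outside CD45 RIT. The log2 fold change was -2.91 after TBI (SE 0.60, edgeR adjusted p 0.0189), -0.52 after IgG RIT (SE 0.66, edgeR adjusted p 0.624, not passing) and 4.16 after CD45 RIT (SE 0.74, edgeR adjusted p 0.00131). The TBI call was lost without TBI replicate 4 (edgeR adjusted p 0.0563), untreated replicate 1 (0.0510) or untreated replicate 2 (0.0539).

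Angpt1 (ENSMUSG00000022309.9, chromosome 15, 42424723 to 42676977) encodes angiopoietin-1, the ligand of the TEK receptor on endothelial and stem cells. It had 77.5, 43.9, 39.5 and 63.6 CPM in untreated replicates 1 to 4 and 4.07, 9.78, 3.53, 2.47 and 1.58 CPM in TBI replicates 1, 3, 4, 5 and 6. It had 6.02, 1.49 and 3.83 CPM in the IgG RIT libraries and 303 and 277 CPM in the CD45 RIT libraries. Its 3 levels did not overlap: TBI and IgG RIT libraries together were below 10 CPM, untreated libraries between 39.5 and 77.5, and CD45 RIT libraries at 277 or more. It fell after TBI by 3.70 on the log2 scale (SE 0.53, edgeR adjusted p 0.00299) and after IgG RIT by 3.89 (SE 0.66, edgeR adjusted p 0.00380). It rose by 2.37 after CD45 RIT (SE 0.61, edgeR adjusted p 0.0113), a call that was lost with no scaling factors (1.67, edgeR adjusted p 0.0596).

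Il7 (ENSMUSG00000040329.14, chromosome 3, 7569994 to 7613760) encodes the growth factor of early B and T cells. Untreated replicates 1 to 4 had 13.8, 2.06, 4.14 and 8.55 CPM, and TBI replicates 1, 3, 4, 5 and 6 had 0.672, 0.829, 1.81, 0.0677 and 1.29 CPM. IgG RIT libraries had 2.26, 1.99 and 9.67 CPM, and CD45 RIT libraries 285 and 206 CPM. Untreated values spread widely (7.14 ± 5.21 CPM, SD, n = 4), and although no TBI library reached them, the TBI change of -2.95 (SE 0.78, edgeR adjusted p 0.0531) did not pass. It was called lower with DESeq2 (-2.83, adjusted p 0.00413), with no scaling factors (-3.13, edgeR adjusted p 0.0387) and in a fit of the 2 groups alone (-2.85, edgeR adjusted p 0.0275). The IgG RIT change was -0.62 (SE 0.85, edgeR adjusted p 0.653, not passing). The rise after CD45 RIT was 5.10 (SE 0.96, edgeR adjusted p 0.00195).

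Csf1 (ENSMUSG00000014599.10, chromosome 3, 107741048 to 107760469) encodes the growth factor of macrophages and their precursors. It had 60.6, 57.4, 33.2 and 48.1 CPM in untreated replicates 1 to 4, 8.67, 10.5, 9.96, 7.55 and 5.81 CPM in TBI replicates 1, 3, 4, 5 and 6, and 14.2, 5.97 and 27.9 CPM in IgG RIT libraries. The CD45 RIT libraries had 960.2 and 824 CPM. Relative to its mean it varied least of the 10 genes within the TBI group (8.50 ± 1.89 CPM, SD, n = 5, a coefficient of variation of 22.3%). All TBI and IgG RIT libraries lay below every untreated library, and both CD45 RIT libraries far above. Csf1 fell by 2.55 after TBI (SE 0.36, edgeR adjusted p 0.00299) and by 1.64 after IgG RIT (SE 0.42, edgeR adjusted p 0.0224), and rose by 4.16 after CD45 RIT (SE 0.45, edgeR adjusted p 4.81e-05). The IgG RIT call was lost without IgG RIT replicate 1 (-1.55, edgeR adjusted p 0.0821) and in a fit of the 2 groups alone (-1.35, edgeR adjusted p 0.0620).

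Vcam1 (ENSMUSG00000027962.14, chromosome 3, 116109949 to 116129688) encodes an adhesion molecule of stromal cells, endothelium and marrow macrophages that binds the integrin made by Itga4 and Itgb1. It had 61.3, 105, 53.0 and 94.4 CPM in untreated replicates 1 to 4 and 19.1, 5.15, 7.82, 4.47 and 33.0 CPM in TBI replicates 1, 3, 4, 5 and 6. It had 18.2, 19.4 and 53.3 CPM in IgG RIT libraries and 3517 and 2847 CPM in CD45 RIT libraries. TBI libraries lay below all untreated libraries, IgG RIT replicate 3 just reached the lowest of them, and the lower CD45 RIT library was 27.1 times the highest of the other 12. Vcam1 rose by 5.34 after CD45 RIT (SE 0.75, edgeR adjusted p 2.97e-04) and fell by 2.50 after TBI (SE 0.58, edgeR adjusted p 0.0316). The IgG RIT change of -1.37 (SE 0.67, edgeR adjusted p 0.173) did not pass, but did with no scaling factors (-1.89, edgeR adjusted p 0.0436). The TBI call was lost in 7 of the 9 fits that left out 1 untreated or TBI library, all but TBI replicate 6 and untreated replicate 3, with edgeR adjusted p between 0.0554 and 0.0915 and changes between -2.64 and -2.27, and also with no filter on low counts (-2.34, edgeR adjusted p 0.0546). Macrophage marker genes, a list of 14 that includes Vcam1 itself, summed to 123 to 172 CPM in untreated and 3160 to 3614 in CD45 RIT libraries, where Vcam1 alone made up 90.1 to 97.3% of the sum. The other 13 summed to 66.3 to 72.4 CPM in untreated, 15.7 to 22.9 in TBI, 13.0 to 29.2 in IgG RIT and 96.5 to 313 in CD45 RIT libraries. After CD45 RIT, 6 of the 12 tested macrophage markers, Vcam1 among them, were called higher and 2 lower (Csf1r and Adgre1), and 5 to 6 of the 14 were at 0. Csf1r, the CSF1 receptor, averaged 45.4 ± 7.37 CPM without treatment (SD, n = 4) and 2.75 ± 0.187 CPM after CD45 RIT (SD, n = 2), while C1qb, a complement gene of macrophages, changed by 6.00 (SE 1.06, edgeR adjusted p 0.00128). Their part in the Vcam1 values was not tested.

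Jag1 (ENSMUSG00000027276.7, chromosome 2, 137081456 to 137116644) encodes a membrane-bound ligand of Notch receptors and was the least abundant of the 10 per length in every group. Untreated replicates 1 to 4 had 2.43, 0.748, 0.601 and 0.658 CPM, with 18 to 93 counts. TBI replicates 1, 3, 4, 5 and 6 had 4, 9, 0, 4 and 11 counts, and IgG RIT replicates 1 to 3 had 0, 11 and 75; a count of 0 allows up to 0.143 CPM in TBI replicate 4 and 0.174 CPM in IgG RIT replicate 1. These 3 groups overlapped. The CD45 RIT libraries had 77.5 and 10.3 CPM, 1272 and 215 counts, and both were above all others, the lower by 2.62 times. Jag1 rose by 5.30 after CD45 RIT (SE 1.49, edgeR adjusted p 0.0172), but without CD45 RIT replicate 1 the change was 3.20 (edgeR adjusted p 0.102) and was not called. It did not pass after TBI (-2.07, SE 1.19, edgeR adjusted p 0.407) or IgG RIT (0.43, SE 1.28, edgeR adjusted p 0.853), and the IgG RIT value was -0.10 with no scaling factors and -1.98 without IgG RIT replicate 3.

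Lepr (ENSMUSG00000057722.17, chromosome 4, 101717404 to 101815352), the receptor of leptin and a marker of perisinusoidal stromal cells, had 72.7, 73.6, 65.6 and 108 CPM in untreated replicates 1 to 4. TBI replicates 1, 3, 4 and 5 had 8.63, 11.3, 11.7 and 10.2 CPM, and replicate 6 had 42.4. The IgG RIT libraries had 32.9, 42.0 and 42.9 CPM and the CD45 RIT libraries 1653 and 1827 CPM. TBI replicate 6 thus lay among the IgG RIT libraries, and every TBI and IgG RIT library lay below every untreated one. Lepr fell by 2.25 after TBI (SE 0.43, edgeR adjusted p 0.0122) and rose by 4.44 after CD45 RIT (SE 0.54, edgeR adjusted p 1.07e-04). The IgG RIT change was -1.03 (SE 0.49, edgeR adjusted p 0.164) and did not pass; it was called with no scaling factors (-1.54, edgeR adjusted p 0.0177) and in a fit of the 2 groups alone (-0.73, edgeR adjusted p 0.0224).

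Foxc1 (ENSMUSG00000050295.4, chromosome 13, 31806633 to 31812476), a forkhead transcription factor, had 20.5, 19.4, 13.5 and 24.9 CPM in untreated replicates 1 to 4 and 2.19, 1.04, 2.38, 1.76 and 6.24 CPM in TBI replicates 1, 3, 4, 5 and 6. It had 7.81, 8.51 and 14.2 CPM in IgG RIT libraries and 384 and 350.0 CPM in CD45 RIT libraries. All TBI libraries were below all IgG RIT libraries, and IgG RIT replicate 3 overlapped the lowest untreated library. The change was -2.86 after TBI (SE 0.44, edgeR adjusted p 0.00416), -0.94 after IgG RIT (SE 0.49, edgeR adjusted p 0.201, not passing) and 4.23 after CD45 RIT (SE 0.54, edgeR adjusted p 1.52e-04). With no scaling factors the IgG RIT change was called (-1.46, edgeR adjusted p 0.0296).

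Ebf3 (ENSMUSG00000010476.14, chromosome 7, 137193673 to 137314445), a transcription factor of the early B cell factor family, had 9.90, 16.1, 9.07 and 9.80 CPM in untreated replicates 1 to 4. It had 1.38, 0.726, 0.381, 0.339 and 2.51 CPM in TBI replicates 1, 3, 4, 5 and 6, 2.43, 0.448 and 10.2 CPM in IgG RIT libraries, and 126 and 113 CPM in CD45 RIT libraries. The TBI libraries lay below the untreated ones, and the IgG RIT libraries ranged from among the TBI values to within the untreated ones. Ebf3 changed by -3.41 after TBI (SE 0.79, edgeR adjusted p 0.0303), -1.36 after IgG RIT (SE 0.87, edgeR adjusted p 0.296, not passing) and 3.41 after CD45 RIT (SE 0.92, edgeR adjusted p 0.0141). The TBI call was lost in 8 of the 9 fits that left out 1 untreated or TBI library, all but TBI replicate 6, with edgeR adjusted p between 0.0531 and 0.0855 and changes between -3.53 and -3.18.

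For Angpt1, Il7, Vcam1 and Ebf3 the annotation places non-coding genes on the opposite strand within the locus. These are Gm17473 (at most 1542 counts in a library) for Angpt1, Gm16685 (652) for Il7, Gm43109 (6189) for Vcam1, and Gm45278 and Gm10578 (48) for Ebf3. Whether the counting used strand is not given in the sources used here, so reads of each pair may be shared.

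Set against the other radioimmunotherapy group, all 10 genes were higher after CD45 RIT than after IgG RIT, where 20.2% of all tested genes were called higher and 21.7% had every CD45 RIT library above every IgG RIT library. The median log2 difference of the 10 was 5.60, from 4.68 for Kitl (SE 0.84, edgeR adjusted p 0.00112) to 6.71 for Vcam1 (SE 0.90, edgeR adjusted p 1.57e-04). Angpt1 differed by 6.26 (SE 0.77, edgeR adjusted p 9.07e-05). Jag1, at 4.87 (SE 1.65, edgeR adjusted p 0.0350), was not called without CD45 RIT replicate 1 (2.77, edgeR adjusted p 0.186), IgG RIT replicate 1 (4.29, edgeR adjusted p 0.0578) or IgG RIT replicate 2 (4.47, edgeR adjusted p 0.10), with no filter on low counts (4.66, edgeR adjusted p 0.0501), or in a fit of the 2 groups alone (4.84, edgeR adjusted p 0.220), which also did not call Ebf3 (4.74, edgeR adjusted p 0.0903). Against TBI, all 10 were again higher after CD45 RIT (background 19.6%, and 18.2% by libraries that do not overlap), with a median of 7.08 and a range from 6.07 for Angpt1 to 8.06 for Il7.

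Between IgG RIT and TBI, 0 of the 10 genes were called by edgeR's quasi-likelihood test (background 0.242%). DESeq2 called 4 of the 10, and 2097 of the 19500 genes to which it gave an adjusted p. An unadjusted edgeR p under 0.05 was found for 7 of the 10, but the share over all genes was not counted. The median log2 difference was 1.77, higher after IgG RIT for 9 of the 10. Foxc1 was higher by 1.92 (SE 0.46, edgeR adjusted p 0.0815) and Kitl by 2.38 (SE 0.63, edgeR adjusted p 0.0932). Il7 and Foxc1 were higher in every IgG RIT library than in every TBI library, as were 8.37% of all tested genes. The Angpt1 difference was -0.19 (SE 0.55, edgeR adjusted p 0.887, not passing), and its sign turned to 0.37 without TBI replicate 3. Without TBI replicate 6, edgeR called 4 of the 10, and 2024 of all 21446 tested genes. The 4 were Cxcl12 (2.07, edgeR adjusted p 0.0248), Kitl (2.89, edgeR adjusted p 0.0137), Lepr (1.91, edgeR adjusted p 7.61e-04) and Foxc1 (2.46, edgeR adjusted p 0.00209).

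The library numbers in the labels were 10 or higher in TBI replicate 6 and all RIT libraries and 9 or lower in the rest; the labels do not call this a batch. Within the lower numbers, that is without TBI replicate 6, edgeR called 8 of the 10 genes lower after TBI. Of all 21446 genes tested there, 826 were called, 165 of them higher. For both RIT groups set against untreated, the numbering and the treatment cannot be told apart.

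The make-up of the 10 transcripts was compared on a per-length scale, as each gene's share of the summed RPKM (CPM divided by transcript length in kilobases) of the 10 genes in a library. Cxcl12 made up 73.0% ± 4.70 without treatment (SD, n = 4), 61.2% ± 9.61 after TBI (SD, n = 5), 68.7% ± 4.25 after IgG RIT (SD, n = 3) and 75.9% ± 2.34 after CD45 RIT (SD, n = 2). Its mean share was above that of the other 9 together in every group, although in TBI replicate 3 it was 49.7%. Angpt1 held 6.03% ± 2.01 of the sum without treatment (SD, n = 4), 5.44% ± 5.15 after TBI (SD, n = 5), 1.41% ± 1.13 after IgG RIT (SD, n = 3) and 1.34% ± 0.118 after CD45 RIT (SD, n = 2). The Vcam1 share was 4.73% ± 0.663 without treatment (SD, n = 4) and 8.63% ± 1.49 after CD45 RIT (SD, n = 2). Lepr held 6.36% ± 1.75 without treatment (SD, n = 4), 11.3% ± 4.22 after TBI (SD, n = 5), 11.2% ± 5.37 after IgG RIT (SD, n = 3) and 5.93% ± 0.278 after CD45 RIT (SD, n = 2). The 10 genes together took 0.111% to 0.239% of all counts in untreated libraries, 0.00797% to 0.0282% in TBI, 0.0241% to 0.0663% in IgG RIT, and 2.28% and 2.61% in the CD45 RIT libraries.

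The order of the mean RPKM levels began with Cxcl12 in every group (138 ± 47.9 in untreated, SD, n = 4) and ended with Jag1 (0.191 ± 0.152). In untreated libraries Lepr (11.4 ± 2.73), Angpt1 (10.8 ± 3.40), Csf1 (9.44 ± 2.33) and Vcam1 (8.85 ± 2.85) followed Cxcl12 and did not differ beyond their spread. Below them came Foxc1 (3.35 ± 0.800) and Kitl (2.62 ± 0.809), then Il7 (1.26 ± 0.920) and Ebf3 (1.22 ± 0.354), each pair within its spread. After CD45 RIT, Vcam1 (359 ± 53.4, SD, n = 2) was second, ahead of Lepr (247 ± 17.4) and Csf1 (169 ± 18.3), and Angpt1 (55.7 ± 3.61) was sixth behind Foxc1 (62.8 ± 4.07).

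**Figure D3:**
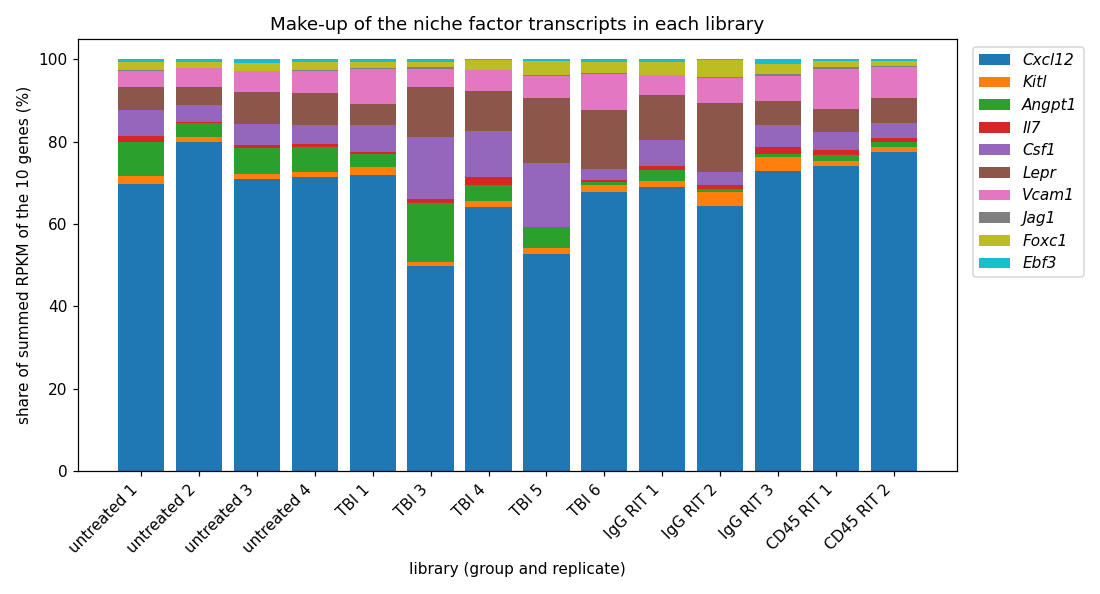
Share of each gene in the summed RPKM of the 10 genes (y axis, %), 1 stacked bar per library (x axis). Cxcl12 takes the largest part in all 14 libraries, between 49.7% in TBI replicate 3 and 80.0% in untreated replicate 2, and the Angpt1 band is thin in IgG RIT and CD45 RIT libraries.

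Because CAR-cell marker genes moved in the same directions (16 of 22 called lower after TBI, 7 of 22 lower after IgG RIT and 22 of 22 higher after CD45 RIT), each niche factor was also expressed per 1000 counts of that marker list in the same library. On this scale Cxcl12 had 413, 481, 473 and 504 counts in untreated libraries, 320.2, 219.6, 258, 177 and 309 in TBI, 337, 339 and 594 in IgG RIT, and 531 and 513 in CD45 RIT libraries. All TBI libraries lay below all untreated ones, a difference in mean log2 ratio of -0.89 (exact permutation test, two-sided, p = 0.00794). Both CD45 RIT libraries lay above all untreated ones, by a difference of 0.16 (exact permutation p = 0.200), where the CPM had risen by 4.52 on the log2 scale. The marker list was chosen with earlier results of these data known, and its make-up differed between groups. Lpl, the list gene with the highest CPM summed over all 14 libraries, made up 3.37 to 7.37% of the marker counts in untreated libraries. In TBI replicate 6 it made up 2.52%. In CD45 RIT replicates 1 and 2 it made up 19.2% and 12.3%. Without Lpl in the list, 29 of the 30 differences tested kept their sign. Lpl was chosen by its sum over all libraries, so the most abundant list gene of each single group was not left out.

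Ebf3 per 1000 marker counts was 3.96, 4.73, 6.19 and 4.28 in untreated, 3.04, 2.96, 1.10, 1.51 and 3.32 in TBI, 3.41, 0.808 and 9.99 in IgG RIT, and 2.7 and 2.16 in CD45 RIT libraries. The TBI and CD45 RIT libraries lay below untreated (differences of -1.03, exact permutation p = 0.0159, and -0.97, exact permutation p = 0.0667). The IgG RIT libraries overlapped untreated, 1 of them being above all 4 (-0.58, exact permutation p = 0.629). Angpt1 was 31, 12.9, 27.0 and 27.8 in untreated, 8.97, 39.9, 10.2, 11.0 and 2.09 in TBI, 8.44, 2.69 and 3.76 in IgG RIT, and 6.48 and 5.29 in CD45 RIT libraries. The Angpt1 differences were -2.38 after IgG RIT (exact permutation p = 0.0286) and -2.0 after CD45 RIT (exact permutation p = 0.0667), with no overlap in either. After TBI it was -1.25 (exact permutation p = 0.167), with TBI replicate 3 above all untreated libraries; without that library it was -1.76 (exact permutation p = 0.0286). Vcam1 was 24.5 to 41.3 in untreated and 75.2 and 54.4 in CD45 RIT libraries, a difference of 0.97 (exact permutation p = 0.0667). The smallest p that these group sizes allow is 0.00794 for TBI, 0.0286 for IgG RIT and 0.0667 for CD45 RIT.

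In all, 30 such differences were tested, 3 had an exact permutation p under 0.05, and 0 passed after Benjamini-Hochberg adjustment over the 30 (smallest adjusted exact permutation p 0.238). After CD45 RIT, both libraries lay within the untreated range for Kitl, Lepr and Foxc1. Il7 had 1 library above the range, Csf1 1 below it, and Jag1 1 above and 1 below. The differences of these 6 genes ran from -0.23 (Csf1) to 1.00 (Il7). The Jag1 difference, 0.47, was -1.06 without CD45 RIT replicate 1.

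**Figure D4:**
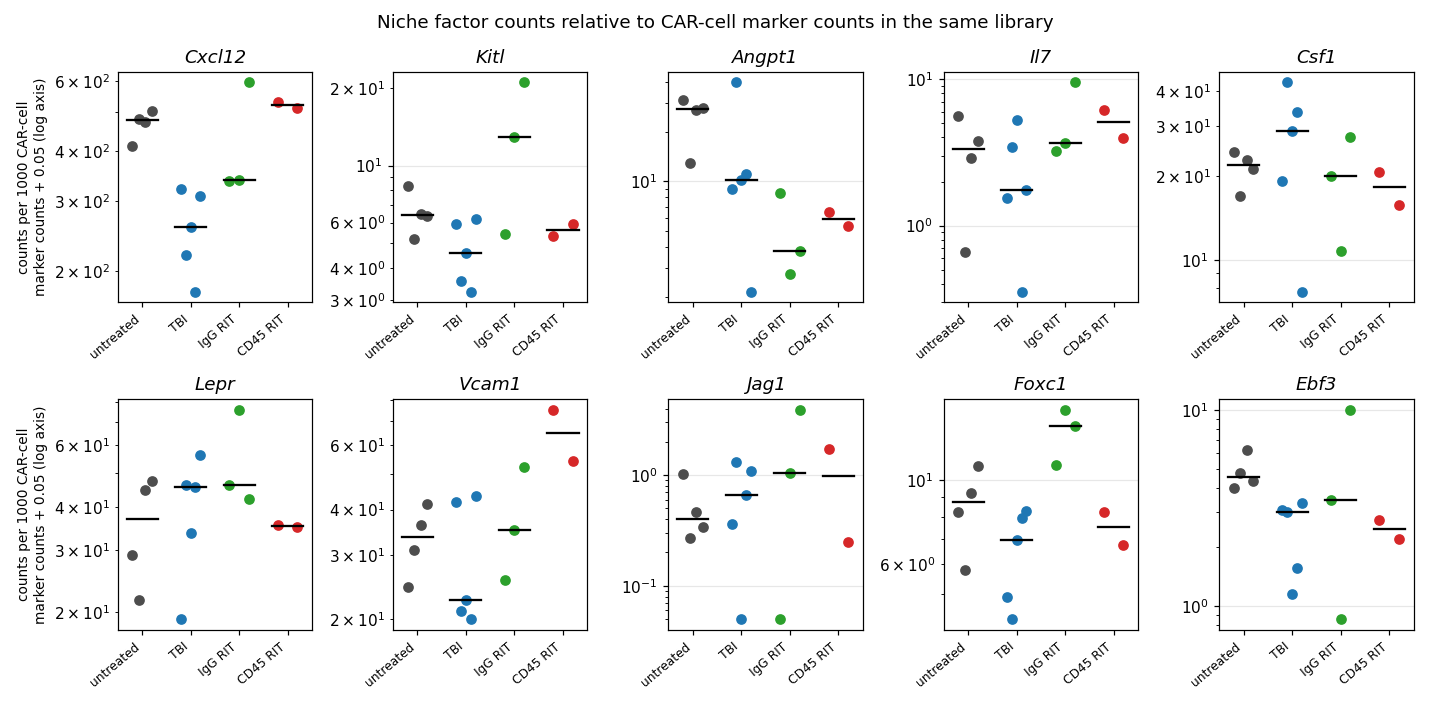
Counts of each gene per 1000 counts of the 22 CAR-cell marker genes in the same library (y axis, log, 0.05 added), by group, 1 point per library, with a line at the group median. Both CD45 RIT points fall within the untreated range for Kitl, Lepr and Foxc1, below it for Angpt1 and Ebf3 and above it for Cxcl12 and Vcam1, 1 or both points fall outside it for Il7, Csf1 and Jag1, and the Cxcl12 points after TBI lie below untreated.

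Across the 12 libraries outside CD45 RIT the niche factors varied together. Over the 45 pairs the Pearson correlation of log2 CPM ranged from 0.339 (Angpt1 with Jag1) to 0.982 (Cxcl12 with Vcam1), with a median of 0.766; these points share libraries, depth and group differences. The genes whose log2 CPM over all 14 libraries was most like that of a niche factor, among 8207 protein-coding genes, were Esm1, Serping1 and Id4 for Cxcl12 (0.993, 0.992 and 0.992). Over the 12 libraries the same values were 0.983, 0.986 and 0.974. For Vcam1 they were Col4a1, Prelp and Ghr (0.993, 0.989 and 0.989), for Lepr Cyp1b1, Plpp3 and Timp2 (0.988, 0.987 and 0.986), for Foxc1 Trf, Esm1 and C4b (0.990, 0.988 and 0.988) and for Csf1 Serpinh1, Tnc and Igfbp4 (0.986, 0.983 and 0.983). For Kitl they were Prelp, Ltbp2 and Esm1 (0.983, 0.977 and 0.976), for Angpt1 Cited2, Cnn2 and Hexa (0.979, 0.973 and 0.972), for Ebf3 Id4, Islr and Fhl2 (0.977, 0.971 and 0.970) and for Il7 Ptx3, Col8a1 and Prelp (0.963, 0.959 and 0.958). Jag1 had the least close neighbours, Lhfp, Htra3 and Tle2 (0.914, 0.899 and 0.895; 0.794, 0.692 and 0.741 over 12 libraries). Esm1 and Serping1, and Tnc and Igfbp4, are on the list of CAR-cell markers.

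The receptors that read these signals were examined in the same libraries, all 16 of a list being tested. After TBI, 0 were called higher and 1 lower, after IgG RIT 0 and 4, and after CD45 RIT 5 and 4, with median log2 fold changes of -0.89, -1.78 and -2.19. Of all tested genes, 0.921% were called higher and 3.38% lower after TBI, 5.75% and 10.7% after IgG RIT, and 14.5% and 18.6% after CD45 RIT, which is also the background for the other lists of genes. Cxcr4, the receptor of CXCL12, averaged 14.6 ± 4.88 CPM without treatment (SD, n = 4), 16.8 ± 5.86 after TBI (SD, n = 5) and 32.7 ± 2.21 after IgG RIT (SD, n = 3), had 0 and 99 counts in the CD45 RIT pair, and was called in no treatment. Kit averaged 135 ± 39.6 CPM without treatment (SD, n = 4), 47.2 ± 20.1 after TBI (SD, n = 5) and 12.7 ± 4.07 after IgG RIT (SD, n = 3), had 0 and 753 counts in the CD45 RIT pair, and was not called either (edgeR adjusted p 0.442, 0.0709 and 0.122). Tek, the receptor of angiopoietin-1, had 0 to 155 counts in untreated libraries and 0 in every RIT library, and was not called. Csf1r was the one receptor of the list called lower in all 3 treatments (-2.30, -2.72 and -4.04; edgeR adjusted p 0.00495, 0.00358 and 3.49e-04). Il7r had 413 to 1138 counts in untreated libraries and 0 and 1 in the CD45 RIT pair (edgeR adjusted p 0.00199).

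Among the Notch receptors, Notch1 fell by 3.59 after IgG RIT (SE 0.87, edgeR adjusted p 0.0173) and Notch2 rose by 2.54 after CD45 RIT (SE 0.81, edgeR adjusted p 0.0299). The CD45 RIT libraries had 31.3 and 150 CPM of Notch2, where untreated libraries had up to 28.0. Notch3, also on this list, was called higher after CD45 RIT as given below, with 8.41 and 52.3 CPM against at most 4.67 in untreated libraries. Of the integrin genes for VCAM1, Itgb7 had 1807 to 2223 counts in untreated libraries and 0 in both CD45 RIT libraries (edgeR adjusted p 1.38e-06). Itga4 was called in no treatment. Itgb1 went the other way, with 172 to 239 CPM in untreated libraries and 571 and 1032.5 CPM in the CD45 RIT pair. Itga9, another integrin gene on the list, had 1.56 to 5.86 CPM in untreated libraries and 28.5 and 198 CPM in that pair. Ackr3, a scavenger receptor of CXCL12, showed the largest rise of the list after CD45 RIT: it averaged 0.663 ± 0.528 CPM without treatment (SD, n = 4) and 206 ± 134 CPM after it (SD, n = 2; edgeR adjusted p 0.00258).

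Blood cell markers moved beside these receptors. Ptprc, which encodes CD45, averaged 72.7 ± 17.8 CPM without treatment (SD, n = 4), 31 ± 15.8 after TBI (SD, n = 5), 10.4 ± 5.19 after IgG RIT (SD, n = 3) and 15.9 ± 22.5 after CD45 RIT (SD, n = 2). The list of 14 haematopoietic markers, which includes Kit, summed to 2207 to 2509 CPM in untreated and 69.2 to 184 CPM in CD45 RIT libraries, where 4 to 7 of its genes were at 0. Its part in the receptor values was not tested.

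A list of 38 other secreted or membrane niche signals had 34 tested genes. After TBI 11 were lower and 0 higher, after IgG RIT 5 were lower and 0 higher, and after CD45 RIT 15 were higher and 2 lower, with medians of -2.03, -1.31 and 3.46. Angptl1, a relative of the angiopoietins, showed the largest fall after TBI (-4.27, SE 0.84, edgeR adjusted p 0.0143). Tnfrsf11b, which encodes the decoy receptor osteoprotegerin, showed the largest rise after CD45 RIT: it averaged 0.239 ± 0.479 CPM without treatment (SD, n = 4) and 76.7 ± 11.3 CPM after it (SD, n = 2; edgeR adjusted p 0.0341). Il6, an inflammatory cytokine, fell after all 3 treatments, with a log2 change of -2.79 after TBI (SE 0.69, edgeR adjusted p 0.0448). It had 153 to 339 counts in untreated libraries, 0 or 1 in the IgG RIT libraries (edgeR adjusted p 0.00238) and 0 in both CD45 RIT libraries (edgeR adjusted p 9.70e-04).

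Of 19 stromal transcription factors other than Foxc1 and Ebf3 that were tested, 5 were lower after TBI, 5 lower after IgG RIT and 10 higher after CD45 RIT, with none in the other direction. Runx2, a master factor of bone formation, fell by 3.76 after TBI (SE 0.43, edgeR adjusted p 0.00136), and Pparg, a master factor of fat cells, rose by 4.57 after CD45 RIT (SE 0.72, edgeR adjusted p 6.48e-04). Foxc2, a close relative of Foxc1, had 7 to 211 counts in untreated libraries and 0 in every IgG RIT library (edgeR adjusted p 0.0358). Osteoblast lineage markers summed to 1795 to 4088 CPM in untreated, 677 to 1167 in TBI, 581 to 1153 in IgG RIT and 21856 to 56528 in CD45 RIT libraries. Adipocyte markers summed to 268 to 472, 72.5 to 112, 107 to 212 and 10633 to 14183 CPM in the same order. In the CD45 RIT libraries Spp1 alone, on the osteoblast list, had 12914 to 31168 CPM. Lpl and Adipoq of the adipocyte list are also on the CAR-cell list. The part of these 2 lists in the niche factor values was not tested.

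Of 17 tested targets and modifiers of Notch signalling, 1 was higher and 0 lower after TBI, 1 higher and 2 lower after IgG RIT, and 5 higher and 3 lower after CD45 RIT. Adam10, a protease that cleaves Notch receptors, rose by 1.2 after TBI (SE 0.25, edgeR adjusted p 0.0211) and by 1.52 after IgG RIT (SE 0.28, edgeR adjusted p 0.00534). Hey1, a Notch target, had 10 to 117 counts in untreated libraries and 0 in every IgG RIT library (edgeR adjusted p 0.0356). After CD45 RIT, Notch3 showed the largest rise (3.12, SE 0.76, edgeR adjusted p 0.00806), and Mfng, a glycosyltransferase that modifies Notch, had 1 count in each CD45 RIT library against 764 to 1589 in untreated ones (edgeR adjusted p 8.18e-05).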

How the data were processed

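The deposited table gives whole-number read counts for each gene in 14 libraries. Per the labels' protocols, cDNA was made by the SMART-Seq v4 low-input method and libraries by Nextera XT. Per the submitters' processing notes, FastQC 0.11.9, STAR 2.7.7a and edgeR 3.36.0 were used; their roles are not stated. These notes list the human build hg38, but 54587 of 55335 gene identifiers matched GENCODE M21 (GRCm38), with the same coordinates for 54587, so positions are on GRCm38. The counts hold no molecular identifiers, so amplification copies were counted as reads, and floors of 3 counts cover counting error only.

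Genes were kept by filterByExpr (minimum count 10, minimum total 15). All 14 libraries entered one quasi-likelihood fit with the 4 groups as terms, in R 4.3.3 with edgeR 4.0.16, on TMM-scaled library sizes, with Benjamini-Hochberg adjustment within each of 6 contrasts. The scripts were tested on simulated counts. Single-gene and summed CPM use the TMM-scaled size, RPKM also the exon length in the deposited table. Ratios to the CAR-cell marker list used a pseudocount of 1 and two-sided exact permutation tests. Likeness was ranked on log2 CPM (prior count 2) among genes with a mean of at least 3. DESeq2 1.42.0 was an alternative.

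The 10 genes and all lists were chosen with earlier results of these data known, so list counts are descriptions. Beyond the 10 genes, the text names the main receptor of each, and from each list other than cell type markers the called genes with the largest rise and fall against untreated in each treatment. To these it adds Cdh5, Pecam1 and Ptprc as checks, and the 3 most alike genes of each of the 10. Itgb1 and Itga9 were added as further receptors, as were single genes of the cell type lists where they bear on a sum. Alternatives were other scalings, no filter, DESeq2, the 2 compared groups alone, the replicate number as a block, library sizes without erythroid genes, and leaving out each library. No 2 replicates were close enough to be the same library: the closest pair, TBI replicates 3 and 5, had a chi-square statistic of 17.3 per gene.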

Additional observations from a re-analysis of the deposited data

Results flagged for a closer look

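For each of the 10 niche factor genes the highest and lowest library of the untreated and TBI groups were compared with the rest of their group, as the gap to the nearest library divided by the group's whole range. Of the 20 groups tested 4 stood out, with limits of 0.829 for 4 libraries and 0.71 for 5. The values are CPM, not logs, and the genes share libraries, so this number cannot be set against a chance rate. In untreated libraries, Jag1 was far higher in replicate 1 (2.43 CPM against 0.601 to 0.748 CPM in the other 3, gap 0.920 of the range), and Ebf3 was higher in replicate 2 (16.1 against 9.07 to 9.90 CPM, gap 0.883). In TBI libraries, replicate 6 was far above the others for Lepr (42.4 against 8.63 to 11.7 CPM, gap 0.910) and for Foxc1 (6.24 against 1.04 to 2.38 CPM, gap 0.741). TBI replicate 6 was also the highest TBI library for Cxcl12, Kitl, Vcam1, Jag1 and Ebf3, and the lowest for Angpt1 and Csf1. Its summed erythroid markers, 230989 CPM, lay beside those of the IgG RIT libraries (175251 to 200454 CPM); the part of this difference in the gene values was not tested.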

How the results depend on the processing

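The count of 10 niche factor genes higher after CD45 RIT was 8 to 10 under the alternatives against untreated, 8 to 10 against IgG RIT and 8 to 10 against TBI; the losses were Angpt1, Jag1 or Ebf3, and DESeq2 gave no adjusted p for Jag1 and Ebf3. The count lower after TBI, 8, was 2 with the replicate block and 5 to 8 when single libraries were left out, with 5 without TBI replicate 4, untreated replicate 1 or untreated replicate 2. The count lower after IgG RIT, 2, was 6 with no scaling factors and 1 to 3 with single libraries left out, with 1 without IgG RIT replicate 1. Between IgG RIT and TBI the count, 0, was 4 with DESeq2, 1 with the replicate block and 0 to 4 with single libraries left out, with 4 without TBI replicate 6. Of 13 same-numbered pairs of libraries across groups, 1 correlated over 0.1 (range -0.0896 to 0.139) after each group's mean was taken off. Pairs with different numbers were not set beside them, and the groups are small. The check therefore cannot decide whether the replicate numbers pair the libraries. Results with the block are given only in this section. With the block, Jag1 after IgG RIT was -0.62, Csf1 after IgG RIT lost its call (edgeR adjusted p 0.0770) and Lepr gained one (0.0208).

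Of 30 ratios to CAR-cell marker counts, 3 had an exact permutation p under 0.05. The number was 13 with the TMM-scaled library size as denominator, and 1 to 4 with single libraries left out: 4 without TBI replicate 3, where Angpt1 after TBI also passed, and 1 without any of the 4 untreated libraries, when the groups are smaller and the smallest possible p is larger. With library size in place of marker counts the sign turned for Angpt1 (2.42), Csf1 (4.19), Ebf3 (3.45), Foxc1 (4.26) and Kitl (4.21) after CD45 RIT. It also turned for Csf1 (-2.54), Jag1 (-2.18) and Lepr (-2.51) after TBI, and for Foxc1 (-0.96), Il7 (-0.66), Jag1 (-0.89), Kitl (-0.83), Lepr (-1.01) and Vcam1 (-1.50) after IgG RIT; that scale is the library and not the marker list. Without Lpl in the marker list, Foxc1 after CD45 RIT was 0.0087.

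With single libraries left out, the ratios that changed sign ranged from -0.11 to 0.51 (Csf1), -1.04 to 0.14 (Il7) and -0.066 to 0.40 (Lepr) after TBI. After IgG RIT they ranged from -0.51 to 0.15 (Csf1), -1.42 to 0.32 (Ebf3), -0.49 to 2.31 (Jag1) and -0.12 to 0.39 (Vcam1), and after CD45 RIT from -1.06 to 2.00 (Jag1) and -0.17 to 0.21 (Lepr). None of these had passed. The fold change of Jag1 after IgG RIT ranged from -1.98 to 1.16 and was -0.10 with no scaling factors, and that of Angpt1 between IgG RIT and TBI ranged from -0.69 to 0.37. The causes were not tested.

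Counts over all genes moved more. TBI against untreated, 926 genes, gave 2485 with DESeq2, 3251 in a fit of the 2 groups, 38 with the replicate block and 422 to 826 with single libraries left out. IgG RIT against untreated, 3536 genes, gave 5942, 6662, 2063 and 1774 to 2563 in the same order, and IgG RIT against TBI, 52 genes, gave 2097 with DESeq2, 850 in the fit of the 2 groups, 203 with no scaling factors and 2 to 2024 with single libraries left out. CD45 RIT against untreated, 7116 genes, gave 3995 in the fit of the 2 groups, 4062 with the block and 11346 without CD45 RIT replicate 1. Against IgG RIT, 8108 genes, the fit of the 2 groups gave 2217 and the block 5098, and against TBI, 8308 genes, the block gave 3756. The number called higher after CD45 RIT against untreated was 3115 of 7116, 3853 of 7304 with RLE factors and 1796 of 7907 with no scaling factors; after IgG RIT it was 1236 of 3536, 1549 of 3315 and 735 of 5054. Jag1 is the gene most limited by depth, with 0 to 11 counts in TBI libraries.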
